A study of Mus musculus with 8 samples.

Results

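The genes described are 10 components of the NF-kB pathway, namely the subunits Nfkb1, Nfkb2, Rel, Rela and Relb, the inhibitors of the IkB family Nfkbia, Nfkbib and Nfkbie, and the ubiquitin-editing and ubiquitin ligase genes Tnfaip3 and Birc3. They were chosen by name and matched by Ensembl identifier, and they are 10 of the 52636 genes in the deposited count table. None of the 10 was at 0 in any library, and all were thus among the 14598 genes tested. RNA was measured in mesenchymal stem/progenitor cells (MSPCs), the stromal cells of bone marrow that make CXCL12 and stem cell factor, and each of the 8 libraries came from 1 mouse. The 4 CTL mice were Flk2-cre+ Cxcr4fl/+ and the 4 cKO mice were Flk2-cre+ Cxcr4fl/fl, all on the C57BL/6 background and 6 weeks old by their labels, although the methods give an older range of ages. Both genotypes thus carried the cre and at least 1 floxed Cxcr4 allele. The cre is expressed from the Flk2 promoter in multipotent progenitors, so that Cxcr4 is deleted in these cells and the blood cells they form and not in the MSPCs that were sequenced. The chemokine receptor CXCR4 keeps blood cells near niche cells, and the comparison of genotypes asks whether niche cells change when their blood cell neighbors lack it. Cells were sorted as CD45-, Ter119-, CD31-, CD144-, PDGFRα+ and GFP+ after enzymatic digestion, with GFP read from an allele of the stem cell factor gene Kitl that mice of both genotypes carried.

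NF-kB proteins bind DNA as dimers. In resting cells most dimers are held in the cytoplasm by IkB proteins, and signals from receptors such as those for TNF, IL-1 and Toll-like receptor ligands lead to phosphorylation and loss of the IkB proteins and to entry of the dimers into the nucleus. Among the genes that the dimers then switch on are several that shut the response down again, such as those for IkBα, IkBε and A20, so that the transcript levels of these inhibitors are often read along with the activity of the pathway. In the noncanonical branch, receptors such as the lymphotoxin β receptor lead to processing of the Nfkb2 product to p52, which pairs with RelB. Marrow stromal cells carry TNF, IL-1 and lymphotoxin receptors, and in stromal cells NF-kB is known to induce genes for adhesion molecules, chemokines and colony stimulating factors. Transcript levels do not measure where the proteins are or how they are modified.

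The promoters are shown first, because several of these genes are known both as parts and as targets of the pathway. RefSeq start sites on GRCm38.p6 were available for 8 of the 10 genes, in 11 windows of 300 bases that run from 250 bases before the start to 50 bases from the start on, and Nfkb1 and Relb are named only. The consensus kB site, a stretch of 10 bases with ambiguous positions, was searched on both strands, and overlapping matches were merged. It was found in 7 of the 11 windows, where 8.46% of all 32851 windows of this length and 10.4% of the 12580 windows of genes tested here held a match. With a gene counted once if any of its windows held a match, these were 5 of the 8 genes, Nfkb2, Rel, Nfkbia, Nfkbie and Tnfaip3, and not Rela, Nfkbib and Birc3. By the same count 9.55% of all 27025 genes with a window and 12.2% of the 9842 tested here held a match. In the pieces below, read 5′ to 3′ on the strand of the gene, capitals mark the match. The 4 pieces of Nfkb2 lie at chr19:46304689-46304718, chr19:46304716-46304745, chr19:46305449-46305478 and chr19:46305695-46305724 on the plus strand, in the windows of its 3 starts. The piece of Rel is chr11:23770970-23771099 on the minus strand, that of Nfkbia is chr12:55492648-55492777 on the minus strand, that of Nfkbie is chr17:45555570-45555699 on the plus strand, and those of Tnfaip3 are chr10:19015516-19015545 and chr10:19015403-19015432 on the minus strand.
Nfkb2 a: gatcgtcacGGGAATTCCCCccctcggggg
Nfkb2 b: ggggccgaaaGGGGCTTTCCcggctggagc
Nfkb2 c: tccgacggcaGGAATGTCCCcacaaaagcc
Nfkb2 d: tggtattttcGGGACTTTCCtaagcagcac
Rel: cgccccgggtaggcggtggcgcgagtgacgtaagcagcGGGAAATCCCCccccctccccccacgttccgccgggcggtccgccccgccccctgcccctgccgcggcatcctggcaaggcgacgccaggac
Nfkbia: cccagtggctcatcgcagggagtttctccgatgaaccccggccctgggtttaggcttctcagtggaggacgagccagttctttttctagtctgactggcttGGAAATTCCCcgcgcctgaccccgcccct
Nfkbie: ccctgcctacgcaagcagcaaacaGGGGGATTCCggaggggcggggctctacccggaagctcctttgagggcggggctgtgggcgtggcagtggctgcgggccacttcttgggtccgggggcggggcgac
Tnfaip3 a: gactcacgcgGGGACACCCCggggcgggac
Tnfaip3 b: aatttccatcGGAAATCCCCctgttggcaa

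Counted from the start site at 0, the match began at -29 in Nfkbia, -92 in Rel and -106 in Nfkbie. Tnfaip3 held matches at -125 and -12 from its upstream start, and the window of its other start held none. Nfkb2, the gene with the most matches, held them at -39 and -11 from the first start and at -236 from the next, and its remaining match lay at 10 from that start and at -225 from the last. A match describes the letters of these windows only, and binding was not measured. Among the other lists of the pathway, 12 of the 22 target genes with a window held a match, as did 5 of 14 other inhibitors, 4 of 21 kinases and adaptors, 3 of 16 receptors and 1 of 9 ligands, again with each gene counted once.

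Total counts ranged from 31047344 to 38216877 per library, and 18366 to 20684 genes had a count. The 8 markers of MSPCs, among them Lepr, Cxcl12 and Kitl, were all tested and summed to 51276 to 64235 CPM (counts scaled to library size by TMM) per library, where 6 pan-blood markers, Ptprc (CD45) included, summed to 6.07 to 10.8 CPM, 8 endothelial markers to 3.62 to 11.9 CPM and 8 neutrophil markers to 25.9 to 144 CPM. The 6 osteoblast markers summed to 8103 to 14155 CPM, most of it from Ibsp, and the 9 B lymphoid markers to 0.259 to 3.71 CPM except in CTL3, at 129 CPM. Each sample's title also carries a number that the labels do not explain. It lies between 67 and 86 for CTL1, CTL3, cKO1 and cKO3 and between 26 and 32 for CTL2, CTL4, cKO2 and cKO4, so that both ranges hold 2 mice of each genotype. The most deeply sequenced libraries, CTL4 and cKO4, are both in the range 26 to 32. The counts of Cxcr4 in MSPCs do not check the genotype labels, since the gene is not deleted in these cells. In bulk RNA, fewer cells of a type and less RNA per cell cannot be told apart.

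Across genes, levels were compared as CPM per kilobase of exons, over all 8 libraries. The most abundant transcript was that of Nfkbia (IkBα, the main inhibitor of dimers with RelA), at 124 ± 27.2 CPM per kilobase (SD, n = 8), and 98.1% of the 14575 tested genes with a known length lay below it. Nfkbie (IkBε) at 45.3 ± 19.2 and Rela (the transactivating subunit RelA) at 39.9 ± 4.44 CPM per kilobase came next and could not be ordered, since Nfkbie was the higher in 4 of 8 libraries. Below them, Nfkbib (IkBβ, 19.0 ± 2.13 CPM per kilobase), Nfkb2 (p100 and p52, 17.4 ± 5.22 CPM per kilobase) and Relb (the partner of p52, 14.3 ± 3.50 CPM per kilobase) formed a group in which neighbors had overlapping values, with Nfkbib above Nfkb2 in 4 of 8 and Nfkb2 above Relb in 6 of 8 libraries. Birc3 (cIAP2, a ubiquitin ligase at TNF receptors) reached 7.42 ± 2.78 and Tnfaip3 (A20, which removes ubiquitin chains from signaling proteins) 4.05 ± 1.32 CPM per kilobase. Relb lay above Birc3 and Birc3 above Tnfaip3 in 8 of 8 libraries, although the ranges over libraries overlapped. The lowest levels were those of Nfkb1 (p105 and p50) at 2.22 ± 0.388 and Rel (c-Rel, a subunit best known from lymphocytes) at 1.52 ± 0.375 CPM per kilobase. 26.5% of the tested genes lay below Rel. The place of Nfkb1 rests on its length, since the union of its exons spans 12061 bases and its longest transcript 4149. With the longest transcript as the length, Nfkb1 was at 6.45 CPM per kilobase and lay above Tnfaip3 in all but 1 of the 8 libraries. Birc3 was then at 12.8 ± 4.78 CPM per kilobase (SD, n = 8).

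**Figure D1:**
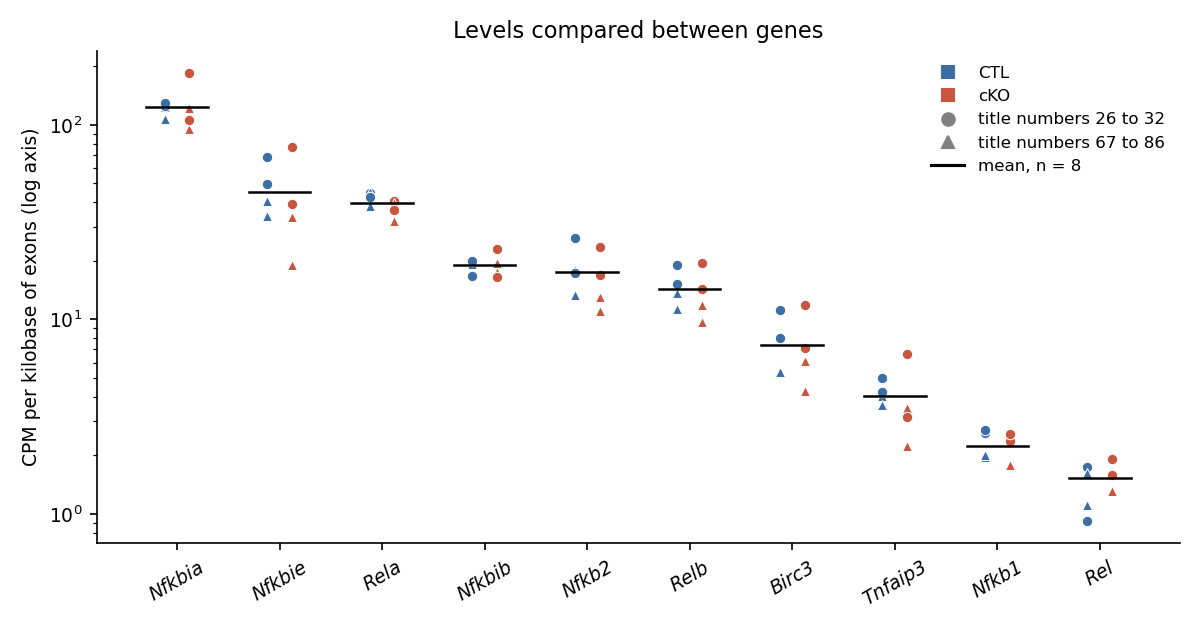
Level of each gene in CPM per kilobase of exons on a log axis, with 1 point for each of the 8 libraries, blue for CTL, red for cKO, circles for title numbers 26 to 32, triangles for 67 to 86 and a line for the mean. Nfkbia lies highest at a mean of 124, and Rel lowest at 1.52.

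No gene of the 10 was called between genotypes. With edgeR's quasi-likelihood test and Benjamini-Hochberg adjustment over all 14598 genes, 0 genes passed an adjusted p of 0.05 (0%), and 646 had an unadjusted p under 0.05 (4.43%), none of them among the 10. DESeq2's Wald test, an alternative, called 23 genes, of which 0 were among the 10. For 383 genes (2.62%) the 4 cKO libraries lay wholly above or wholly below the 4 CTL libraries, and again none of the 10 was among these. Coordinates below are those of GENCODE M21 on GRCm38. The log2 differences, cKO minus CTL, ranged from -0.21 for Nfkb2 to 0.33 for Rel. 3 were positive and 7 negative, with a median of -0.11, where all tested genes had a median of -0.0013 and 50.2% were negative. The median size of the difference, 0.127, was close to that over all tested genes, 0.141. All 10 had an adjusted p of 0.999.

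**Figure D2:**
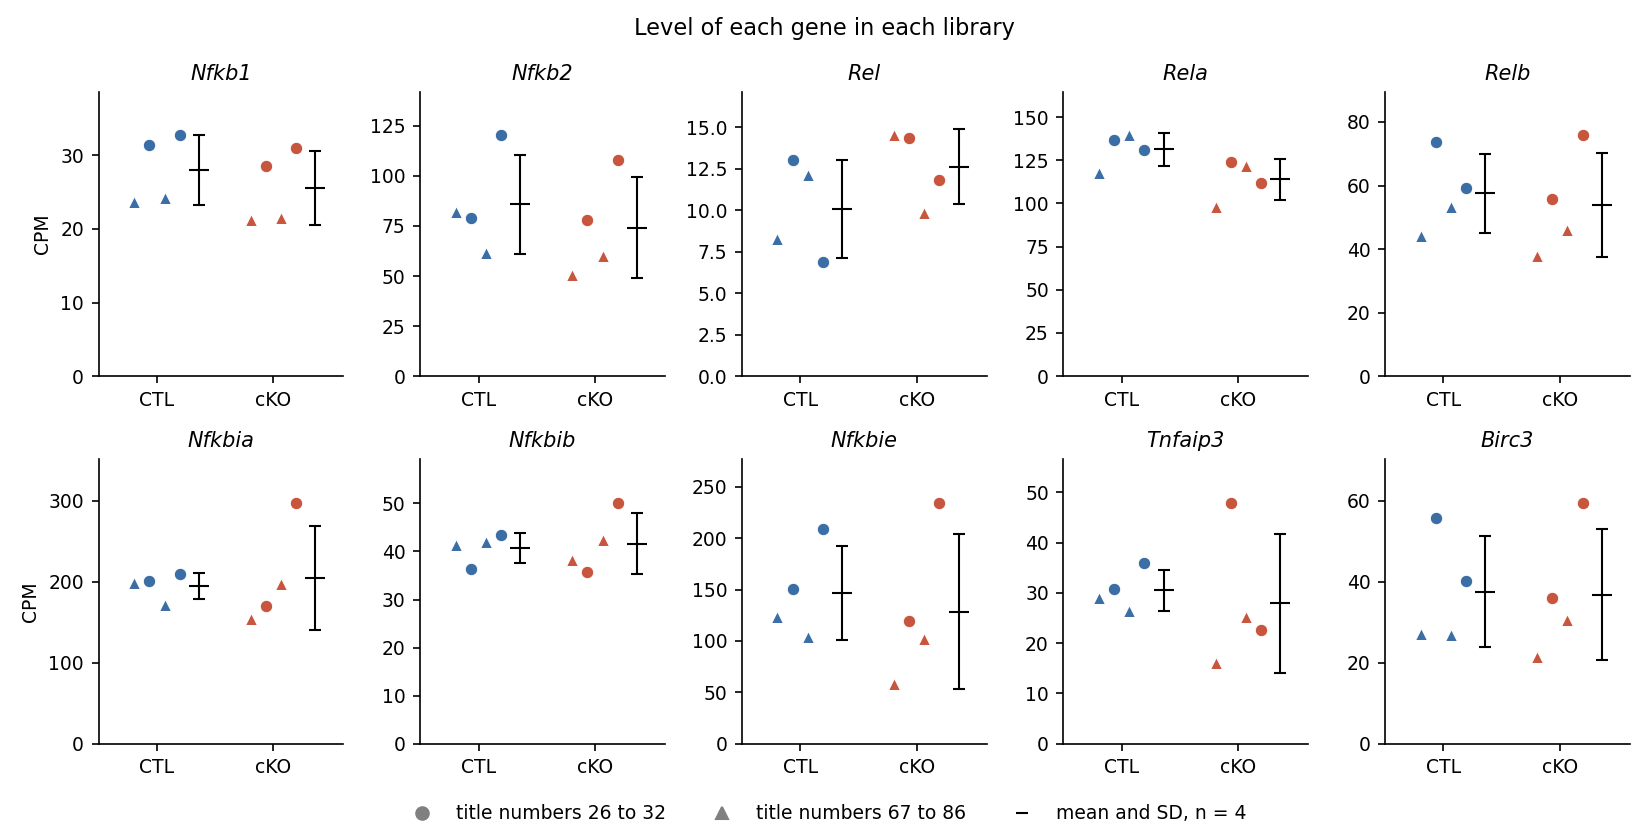
CPM of each gene in each library by genotype, with circles for title numbers 26 to 32, triangles for 67 to 86 and the mean with SD (n = 4) in black. The genotypes overlap for all 10 genes, and Nfkb1, Relb and Birc3 show circles above triangles throughout.

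Rela and Rel, the subunits with transactivation domains in the canonical branch, differed in opposite directions and neither passed the test. Rela (ENSMUSG00000024927.7, chr19:5637483-5648130, plus strand) was at 118, 137, 139 and 131 CPM in CTL1 to CTL4 and at 97.9, 124, 122 and 112 CPM in cKO1 to cKO4. The means were 131 ± 9.67 and 114 ± 11.9 CPM (SD, n = 4 each), and only CTL1 lay within the range of the cKO values. Of the 10, Rela had the smallest p in this comparison, with a log2 difference of -0.20 (SE 0.11) and unadjusted p of 0.0798 in edgeR. The exact permutation test of its log2 CPM over the 70 assignments of 8 libraries gave p = 0.0857, two-sided, where the smallest possible p is 0.0286. The difference was -0.18 within the title numbers 26 to 32 and -0.23 within 67 to 86. Rel (ENSMUSG00000020275.9, chr11:23736847-23770970, minus strand), a transcript of 255 to 504 counts, was at 8.25, 13.1, 12.1 and 6.88 CPM in the CTL libraries and at 14.5, 14.4, 9.81 and 11.8 CPM in the cKO libraries. Its log2 difference of 0.33 (SE 0.26) was the only one above 0.1 in size with a positive sign, and the spread among CTL mice, from 6.88 to 13.1 CPM, overlapped that among cKO mice. The interval of 2 SE on either side ran from -0.19 to 0.84 for Rel and from -0.41 to 0.0054 for Rela. Nfkb1 (ENSMUSG00000028163.17, chr3:135584655-135691547, minus strand), whose p50 product has no transactivation domain of its own and pairs with RelA, was at 23.6, 31.4, 24.2 and 32.7 CPM in CTL and 21.2, 28.6, 21.5 and 31.0 CPM in cKO libraries. In both genotypes replicates 2 and 4 were high and replicates 1 and 3 low, and the genotype difference of -0.13 (SE 0.18) was smaller than this split.

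The noncanonical pair, Nfkb2 and Relb, varied widely between mice of each genotype. Nfkb2 (ENSMUSG00000025225.14, chr19:46304320-46312385, plus strand) was at 82.2, 79.1, 61.5 and 120.3 CPM in the CTL libraries and at 50.6, 77.8, 60.1 and 108 CPM in the cKO libraries. CTL4 and cKO4 were the highest of their groups and cKO1 the lowest library of all. The means of 85.8 ± 24.7 and 74.1 ± 25.2 CPM (SD, n = 4 each) gave a log2 difference of -0.21 (SE 0.26). Psd, a gene on the opposite strand with 79 to 210 counts, shares 299 exon bases with Nfkb2, 6.52% of its exons, and the noncoding gene AC114539.1, not analysed here, shares 531. Whether the counting used the strand is not given in the sources used here. Relb (ENSMUSG00000002983.17, chr7:19606217-19629438, minus strand) was at 44.2, 73.8, 53.3 and 59.2 CPM in CTL and 37.8, 55.6, 46.0 and 75.8 CPM in cKO libraries, again high in replicates 2 and 4 of both genotypes. Its log2 difference was -0.099 (SE 0.22) and changed sign without CTL replicate 2 (0.038) or cKO replicate 1 (0.035).

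Of the IkB genes, Nfkbie was the most variable of the 10 and Nfkbib the least. Nfkbia (ENSMUSG00000021025.8, chr12:55489410-55492647, minus strand) was at 198, 201, 172 and 209 CPM in the CTL libraries and 154, 170.1, 197 and 297 CPM in the cKO libraries. The cKO4 library held the highest value and cKO1 the lowest, so that the cKO SD (64.4 CPM, n = 4) was wider than that of CTL (16.1 CPM, n = 4). The log2 difference was 0.070 (SE 0.19), and without cKO replicate 4 it was -0.17. Nfkbib (ENSMUSG00000030595.15, chr7:28758251-28767512, minus strand) ranged from 35.7 to 50.1 CPM over all 8 libraries, with means of 40.8 ± 3.07 CPM for the CTL mice and 41.6 ± 6.30 CPM for the cKO mice (SD, n = 4 each) and a difference of 0.031 (SE 0.13). On the opposite strand, Sirt2 (1210 to 2067 counts) shares 42 exon bases with Nfkbib and Ccer2 (5 to 32 counts) shares 314. Nfkbie (ENSMUSG00000023947.7, chr17:45555703-45563169, plus strand) was at 124, 151, 104 and 209 CPM in CTL and 58.3, 119.8, 102 and 234 CPM in cKO libraries, a range of 4.03-fold from cKO1 to cKO4. Both extremes were thus cKO mice, and the log2 difference of -0.19 (SE 0.37) between genotypes lay within an interval of -0.93 to 0.55 (2 SE). It turned positive without CTL replicate 4 (0.027) or cKO replicate 1 (0.047). The SD of log2 CPM over the 8 libraries was 0.634 for Nfkbie and 0.158 for Nfkbib, and the 9403 genes whose mean reached 10 CPM had a median SD of 0.229. Of these genes 96.7% varied less than Nfkbie and 21.8% less than Nfkbib.

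Tnfaip3 and Birc3, which act on ubiquitin chains at the receptors, overlapped between genotypes as well. Tnfaip3 (ENSMUSG00000019850.11, chr10:19000910-19015657, minus strand) was at 29.1, 30.7, 26.3 and 35.9 CPM in the CTL libraries and 16.1, 47.9, 25.3 and 22.6 CPM in the cKO libraries. The cKO mice spanned the whole range, with cKO1 lowest and cKO2 highest, and the difference was -0.12 (SE 0.29), or 0.059 without cKO replicate 1 and -0.52 without cKO replicate 2. Birc3 (ENSMUSG00000032000.17, chr9:7848699-7873186, minus strand) was at 27.1, 55.8, 26.9 and 40.3 CPM in CTL and 21.4, 35.9, 30.6 and 59.5 CPM in cKO libraries. CTL2 and cKO4 were the highest of these, and the log2 difference of -0.025 (SE 0.33) was the smallest in size of the 10. Without CTL replicate 2 the Birc3 difference was 0.23, and without cKO replicate 4 it was -0.36.

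Between the title number groups, 5 of the 10 genes, Nfkb1, Nfkb2, Relb, Nfkbie and Birc3, were lower in the libraries numbered 67 to 86 at an unadjusted p under 0.05 (edgeR, with genotype as a term). This comparison follows no design given in the labels and describes how the genes varied between mice. Of all tested genes, 949 did so (6.5%). None of the 10 passed the adjusted threshold in edgeR, which called 2 genes in all (0.0137%), and the smallest adjusted p of the 10 was 0.197, for Birc3. DESeq2's Wald test called 4 of them lower in 67 to 86, Nfkb1 (adjusted p = 0.0121), Relb (adjusted p = 0.0372), Nfkbie (adjusted p = 0.0181) and Birc3 (adjusted p = 0.00509). It called 237 of all tested genes lower in 67 to 86 (1.62%). The calls among the 10 thus depended on the tool. All 10 log2 differences, 67 to 86 minus 26 to 32, were negative, as were those of 51.0% of all tested genes. Their median was -0.48, where all tested genes had -0.0065. The 10 genes were measured in the same libraries and several varied together, so that their signs are not independent. The differences of Nfkbib and Rel, at -0.015 (SE 0.13) and -0.037 (SE 0.27), were near 0 and changed sign when single libraries were left out.

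For Nfkb1, Relb and Birc3 the 4 libraries numbered 67 to 86 all lay below the 4 numbered 26 to 32, as for 503 of all tested genes (3.45%). Birc3 had 47.9 ± 11.5 CPM in 26 to 32 and 26.5 ± 3.78 CPM in 67 to 86 (SD, n = 4 each), a log2 difference of -0.85 (SE 0.19). Relb had 66.1 ± 10.2 and 45.3 ± 6.40 CPM (-0.55, SE 0.14 on the log2 scale), and Nfkb1 30.9 ± 1.71 and 22.6 ± 1.52 CPM (-0.45, SE 0.11). By mean log2 CPM, 8 of the 10 genes were lower in 67 to 86 within each genotype, which for these 3 follows from the separation. The share of all tested genes lower within both genotypes is not given here, so this count is a description only. Nfkbie had 179 ± 52.5 CPM in 26 to 32 and 97.0 ± 27.6 CPM in 67 to 86 (SD, n = 4 each), the widest difference of the 10 at -0.90 (SE 0.25), but CTL1 (67 to 86) lay above cKO2 (26 to 32). Nfkb2, at -0.61 (SE 0.18), overlapped through CTL1 as well. Rela and Nfkbia differed by -0.081 (SE 0.10) and -0.28 (SE 0.17), and Tnfaip3 by -0.52 (SE 0.25), each with an unadjusted p above 0.05 in edgeR. Without the most deeply sequenced libraries, CTL4 and cKO4, the differences were -0.76 for Birc3, -0.50 for Relb and -0.40 for Nfkb1, and those of Nfkbie and Nfkb2 narrowed to -0.49 and -0.31. Their unadjusted p in edgeR was then 0.0686 for Nfkbie and 0.107 for Nfkb2, and those of Nfkb1, Relb and Birc3 stayed under 0.05. The share of all genes under that p in this fit is not given here, so these genes cannot be set against it.

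**Figure D3:**
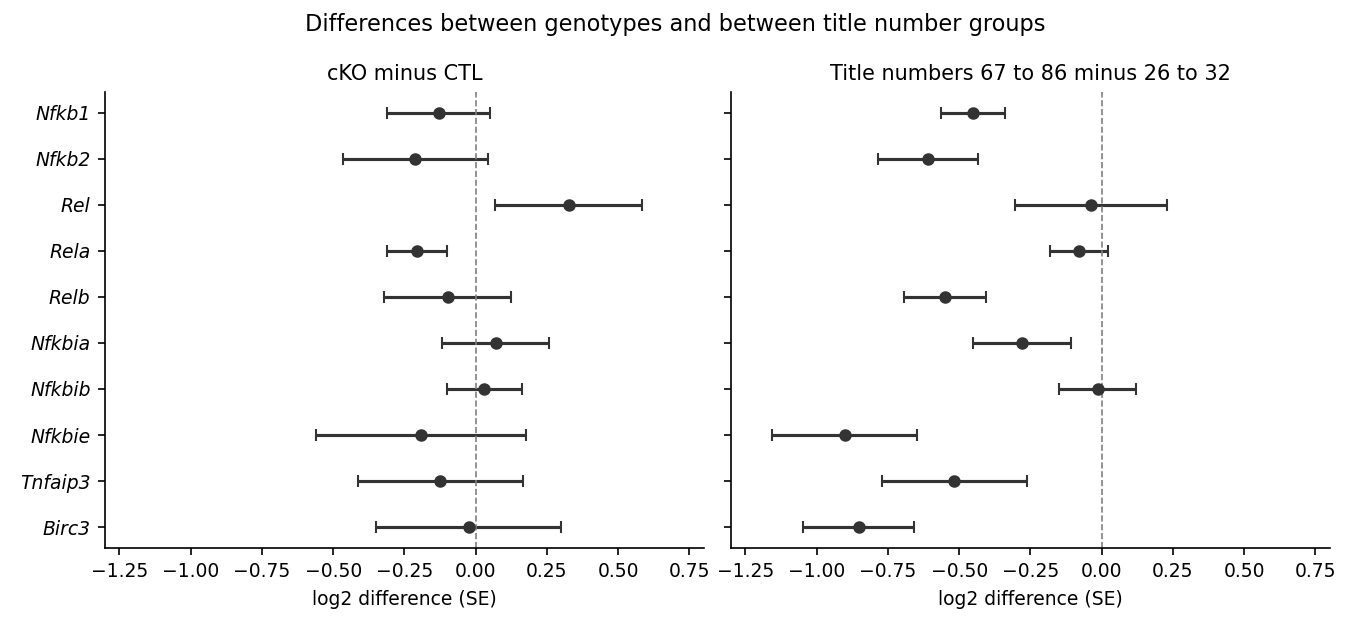
log2 differences of the 10 genes from edgeR, cKO minus CTL on the left and title numbers 67 to 86 minus 26 to 32 on the right, with bars of 1 SE. On the left the values lie between -0.21 and 0.33, and on the right all 10 lie below 0, down to -0.90 for Nfkbie.

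Other measures were also compared between the title number groups. The libraries numbered 67 to 86 had counts for 18366 to 18750 genes and the others for 19363 to 20684. Of the 23 interferon response genes, 22 were tested, and 10 were higher in 67 to 86 at an unadjusted p under 0.05 in edgeR. Over all 14598 tested genes, 1694 had that p in either direction, 949 of them lower in 67 to 86. The 8 macrophage markers summed to 35.2 to 49.98 CPM in 67 to 86 and 21.6 to 49.8 CPM in 26 to 32, with a positive difference for all 6 tested markers, 2 of them higher at an unadjusted p under 0.05, and none of the 8 at 0 in all libraries. The 7 erythroid markers summed to 134 to 246 CPM and 67.8 to 159 CPM. The 8 MSPC markers summed to 56898 to 64235 CPM in 67 to 86 and 51276 to 57762 CPM in 26 to 32. Most of this sum came from Cxcl12, whose log2 difference was 0.20 (SE 0.10) with an unadjusted p of 0.091 in edgeR. Of the 8 differences 6 were negative. At an unadjusted p under 0.05 in edgeR, Adipoq (adiponectin) was higher in 67 to 86, by 0.45 (SE 0.11) on the log2 scale, and Kitl (stem cell factor) had a difference of -0.36 (SE 0.15). Of the 6 osteoblast markers 5 were tested, with 3 negative and 2 positive differences, and 1, Ibsp, was lower in 67 to 86 at that p (-0.44, SE 0.12). Their part in the differences of the NF-kB genes was not tested.

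Whether the genotype difference itself differed between the title number groups was tested as an interaction in edgeR. Of the 14598 genes 0 passed an adjusted p of 0.05 (0%), and 502 had an unadjusted p under 0.05, with 0 of the 10 in either count. The widest values among the 10 were those of Tnfaip3, where cKO minus CTL was -0.013 in 26 to 32 and -0.45 in 67 to 86 as the difference of mean log2 CPM, and of Nfkbie, where it was -0.085 and -0.56. The interaction was -0.50 (SE 0.51) for Tnfaip3 and -0.48 (SE 0.51) for Nfkbie, neither larger than its error.

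Over the 8 libraries, 6 of the genes, Nfkb1, Nfkb2, Relb, Nfkbia, Nfkbie and Birc3, were all positively correlated with each other in log2 CPM. This group of 6 was picked after its values were seen, so that its ranges are a description. Among its 15 pairs Pearson's r ran from 0.56 to 0.96 with a median of 0.84, and over all 45 pairs of the 10 genes from -0.55 to 0.96 with a median of 0.45. The closest pairs were Relb with Birc3 (Pearson's r = 0.96, Spearman's rho = 0.93) and Nfkb2 with Nfkbie (r = 0.95, rho = 0.95). In the exact permutation test over the 40320 orders of the libraries, Pearson's r had p = 0.000422 for both pairs and 0.00949 after Benjamini-Hochberg adjustment over 45 pairs. Spearman's rho had p = 0.00223 for Relb with Birc3 and 0.00114 for Nfkb2 with Nfkbie in the same exact test, and 0.0502 after adjustment for both. Of all 45 pairs, 7 had an adjusted p under 0.05 for Pearson's r in this test and 0 for Spearman's rho. No pair with Nfkbia was among the 7. Without the 2 libraries farthest from the median of the first gene of the pair, r was 0.91 for Relb with Birc3 and 0.93 for Nfkb2 with Nfkbie. It was 0.11 for Relb with Nfkbia. Depth and the title number are shared by all genes of a library. With the mean of each title number group subtracted, r was 0.86 and 0.88 for these pairs, and the median over the 15 pairs fell to 0.62, with Nfkb2 and Relb at 0.18. The highest r of all 45 pairs was then that of Nfkbia with Nfkbib (0.89), a gene outside the 6. Without CTL4 and cKO4 and without subtraction, the median over the 15 pairs was 0.76, with Nfkb1 and Nfkbia at 0.30. Rel stood apart, with r from -0.55 with Nfkb2 to 0.039 with Relb, and Tnfaip3 was closest to Rela (0.64) and close to 0 with Nfkbia (-0.013).

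**Figure D4:**
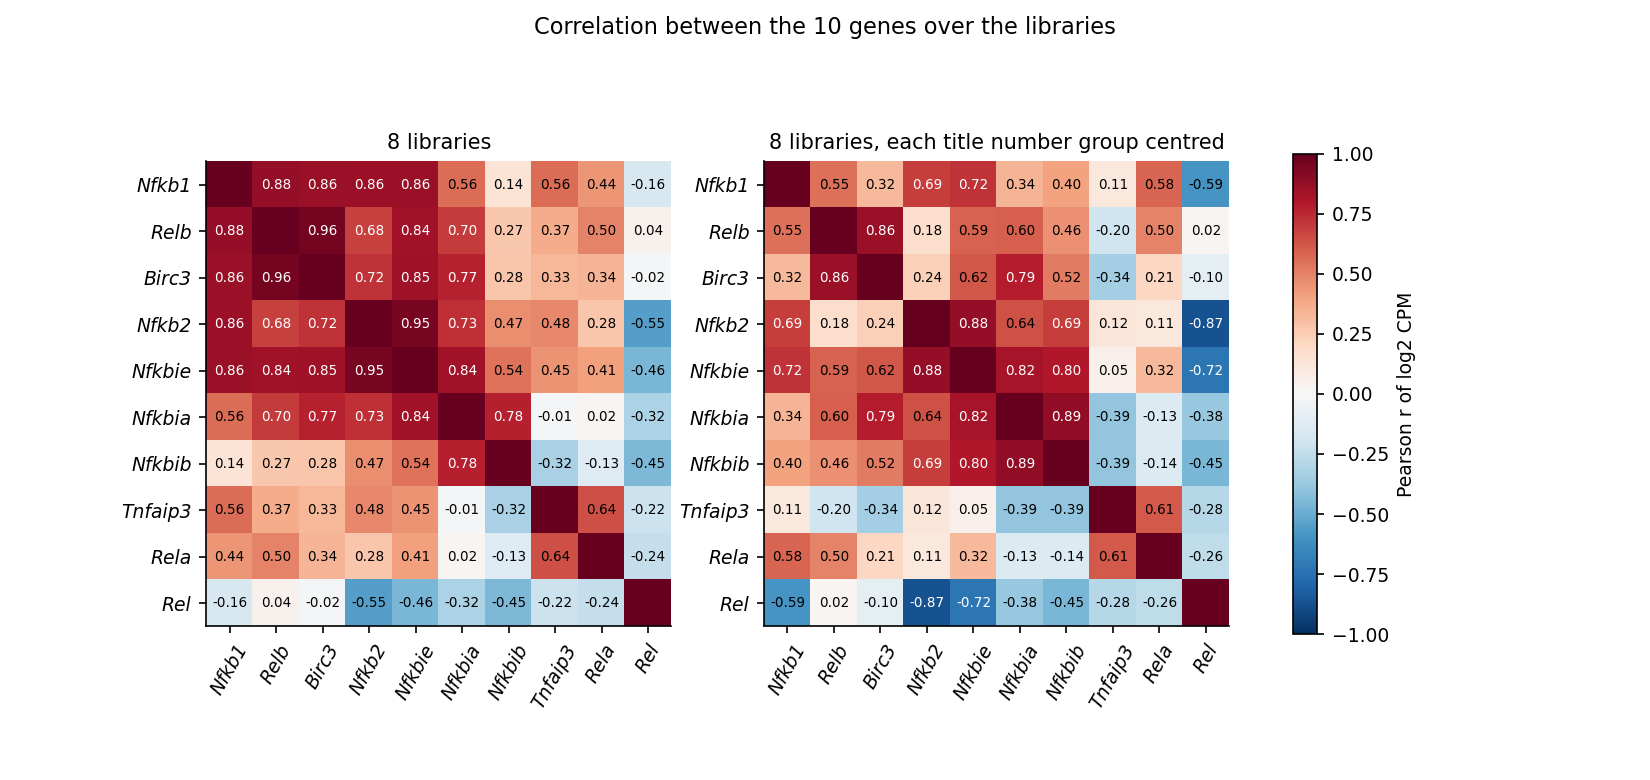
Pearson's r of log2 CPM between the 10 genes over the 8 libraries, without subtraction on the left and with the mean of each title number group subtracted on the right. Red cells are positive and blue cells negative, and the 15 pairs of the first 6 genes run from 0.56 to 0.96 on the left and from 0.18 to 0.88 on the right.

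Nfkbie, the gene with the largest SD of log2 CPM, was compared with the 9402 other genes whose mean reached 10 CPM by Pearson's r of log2 CPM over the 8 libraries, given without a test. The most alike were Eny2 (0.981), Pdlim4 (0.956), Capn1 (0.956), Scly (0.951) and Cd14 (0.949), the last of which encodes a co-receptor for lipopolysaccharide. Nfkb2 came next at rank 6. Nfkb1 was at rank 54, Birc3 at 66, Nfkbia at 80 and Relb at 93, whereas Nfkbib (994), Tnfaip3 (1460), Rela (1640) and Rel (7863) were farther down. Seen from Nfkb2, Nfkbie was the most similar of all 9402 genes, and Relb ranked 4 for Birc3 and Birc3 6 for Relb. The most opposite to Nfkbie were Hmox1 (-0.953), the heme oxygenase gene, Angptl4 (-0.940), Adam15 (-0.938), Nr1h3 (-0.934) and Trp53i13 (-0.933). Hmox1 was highest in cKO1 at 84.6 CPM, where Nfkbie was lowest, and lowest in cKO4 at 47.9 CPM, where Nfkbie was highest. Scly went from 16.7 to 50.01 CPM in the same libraries.

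The other genes of the pathway were taken from lists by role, and 0 of them passed the adjusted threshold in edgeR between genotypes. Of the 25 kinases and adaptors, all tested, 1 was higher in cKO at an unadjusted p under 0.05 and 0 were lower, with a median log2 difference of 0.016. It was Ikbkg (NEMO, the regulatory subunit of the IkB kinase), at 16.7, 18.8, 20.4 and 19.0 CPM in CTL and 19.9, 25.7, 26.8 and 33.3 CPM in cKO libraries, with a difference of 0.50 (SE 0.17). Only cKO1 lay within the CTL range. The most abundant of the list per kilobase, Myd88 (0.026, SE 0.12), Rbck1 (0.041, SE 0.11) and Traf2 (-0.0087, SE 0.11), did not reach that p. Of the 19 other inhibitors 16 were tested, with 1 lower and a median of -0.045. This was Traf3ip2, which is counted in that list although it is known as the adaptor (Act1) that carries signals of the IL-17 receptor to NF-kB, at 43.8, 41.9, 47.5 and 42.8 CPM in CTL and 35.5, 37.4, 35.7 and 40.4 CPM in cKO libraries (-0.24, SE 0.10 on the log2 scale), without overlap between the genotypes. The most abundant of this list per kilobase were Bcl3 (-0.27, SE 0.15), Tollip (0.051, SE 0.095) and Tnip1 (0.011, SE 0.22), a partner of A20, and none of the 3 had an unadjusted p under 0.05.

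Upstream of these, 12 of 21 receptors were tested and 0 had an unadjusted p under 0.05 (median -0.019). The most abundant were Tnfrsf1a (TNF receptor, -0.13, SE 0.097), Ltbr (lymphotoxin β receptor, -0.044, SE 0.098) and Il1r1 (IL-1 receptor, -0.15, SE 0.27), at 184, 94.3 and 65.5 CPM per kilobase. Of these, Tnfrsf1a lay above the level of Nfkbia, the highest of the 10 genes. Of the 11 ligands 5 were tested, again with 0 under that p (median -0.16), and Tnf, Il1a, Il1b, Il33, Tnfsf14 and Cd40lg had no count in at least 1 library. The ligands with the highest levels per kilobase were Tnfsf11 (RANKL, -0.16, SE 0.37), Tnfsf12 (-0.16, SE 0.10) and Lta (0.21, SE 0.79).

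Downstream, 20 of 30 target genes were tested, 10 with a positive and 10 with a negative difference, with a median of -0.0052. Targets without a count in at least 1 library were not tested, and 5 had no count in any. Among the untested was Il6, at 0.49, 0.89, 1.12 and 1.58 CPM in CTL1 to CTL4 and 0 in every cKO library. It had at most 59 counts and is named here after its values were seen. Of the tested targets, 1 was higher and 0 were lower at an unadjusted p under 0.05 in edgeR. It was Irf1, a transcription factor induced by both NF-kB and interferon, at 209.9, 140.2, 179 and 172 CPM in CTL and 198, 243, 247 and 254 CPM in cKO libraries, a difference of 0.43 (SE 0.13). CTL1 lay above cKO1 and the other libraries were apart. The most abundant targets, Fth1 (0.050, SE 0.11), Vcam1 (0.038, SE 0.10) and Csf1 (0.038, SE 0.12), which encode ferritin heavy chain, a ligand of integrins on blood cells and the macrophage growth factor, differed by less than 2 SE. For comparison, of the 20 immediate early genes tested 6 were lower in cKO at that unadjusted p and 0 higher (median -0.34). Of the 22 interferon response genes tested 13 were higher and 0 lower (median 0.44). All of these genes had an adjusted p above 0.05. Over all 14598 tested genes, 646 (4.43%) had that unadjusted p in either direction.

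**Figure D5:**
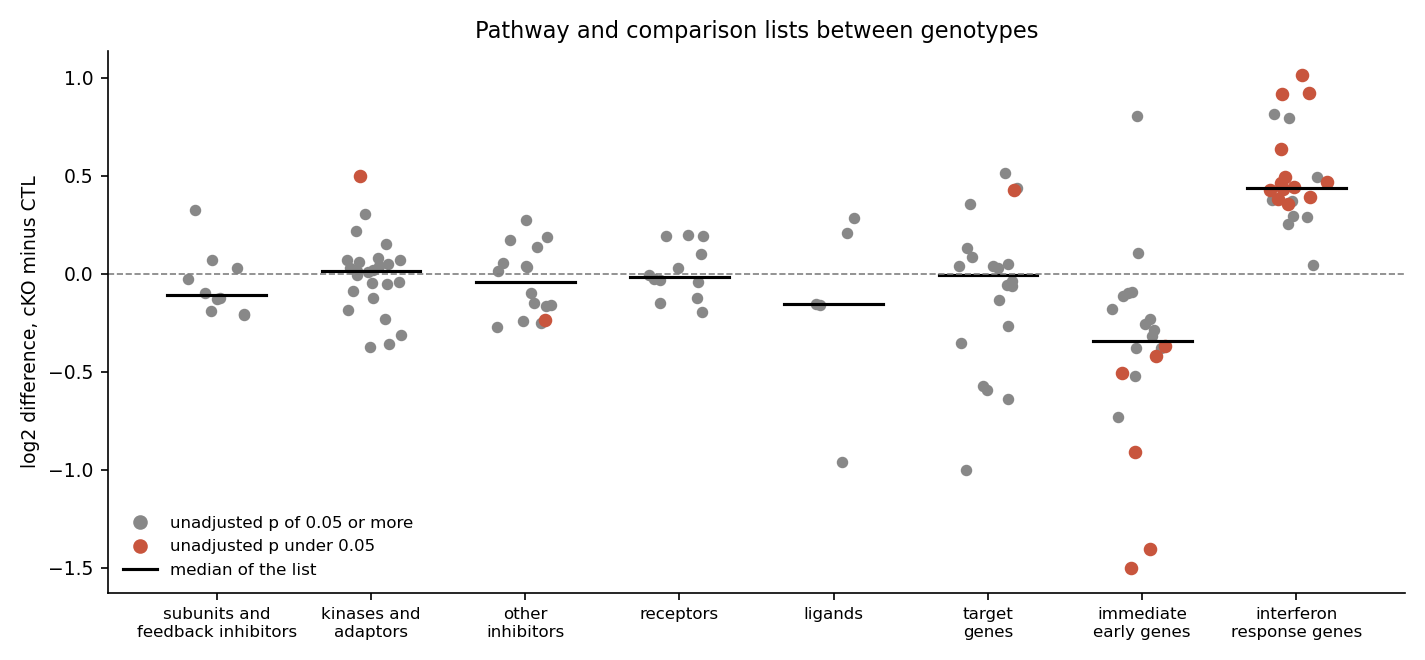
log2 differences of single genes, cKO minus CTL, in the 10 NF-kB genes and 7 other lists, with red points for an unadjusted p under 0.05 and a line for each list's median. The medians of the 10 genes and of the pathway lists lie between -0.16 and 0.016, that of the immediate early genes at -0.34 and that of the interferon response genes at 0.44.

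Between the title number groups, 949 of all tested genes (6.5%) were lower in 67 to 86 at an unadjusted p under 0.05 in edgeR. Of the 25 kinases and adaptors 4 were lower and 0 higher at that p. They were Chuk (IKKα, -0.43), Traf2 (-0.22), Traf5 (-0.95) and Birc2 (cIAP1, the paralog of Birc3, -0.66), named here after their values were seen. Of the other inhibitors, Tnip1 (-0.52) and Nlrc5 (-0.48) were lower, and of the receptors Il1r1 (-0.63) was. Il1r1 was at 618 and 633 CPM in CTL2 and cKO2 and at 291 to 421 CPM in the other libraries. Among targets 0 were lower and 1, Sqstm1, was higher (0.19), and of the ligands Lta was higher, from 12 to 122 counts. None of these passed the adjusted threshold.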

How the data were processed

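RNA of sorted MSPCs was sequenced in 8 libraries. The methods state that reads were trimmed, aligned with HISAT2 to GRCm38 (mm10 in the submitters' notes) and counted per gene with HTSeq. The authors deposited raw counts without normalization. Their release of GENCODE differs from M21, which gave the coordinates, lengths and symbols used here (52403 of 52636 genes matched), and their batch term is not named in the labels. Genes above 0 in all 8 libraries were scaled by TMM and tested with edgeR 4.0.16 (glmQLFit and glmQLFTest) in R 4.3.3, with Benjamini-Hochberg adjustment over 14598 genes and a threshold of 0.05. DESeq2 1.42.0 and limma 3.58.1 served as alternatives, as did other scalings, filters and batch terms and single libraries left out. Correlations used log2 CPM with a prior count of 2. When cKO against CTL was simulated with 200 changed genes drawn at random among 14598, edgeR found 51.5% of them at a true log2 difference of 1 (6 false calls) and 81% at 2 (7 false calls). The widest genotype difference of the 10 genes, 0.33 for Rel, was smaller than both. These shares thus do not tell how often a difference of that size would be found. Genes named from each list were those with an unadjusted p under 0.05 between genotypes and the 3 highest per kilobase, and the 5 most and 5 least like the most variable of the 10. The 10 genes, the lists and the comparison of title numbers were chosen with earlier results of these data known.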

Additional observations from a re-analysis of the deposited data

How the results depend on the processing

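Between genotypes, 0 of the 10 genes passed the adjusted threshold in any of the alternatives run, while the count over all genes was 1 with filterByExpr, 1 with no filter, 23 with DESeq2's Wald test and 47 with its likelihood ratio test when title number was a term, and 0 to 0 with single libraries left out. No other scaling, filter, tool or batch term changed the direction of any of the 10. With single libraries left out the log2 differences ran from -0.31 to 0.038 for Relb, -0.17 to 0.18 for Nfkbia, -0.071 to 0.096 for Nfkbib, -0.65 to 0.047 for Nfkbie, -0.52 to 0.059 for Tnfaip3 and -0.36 to 0.23 for Birc3. They ran from -0.24 to -0.048 for Nfkb1, -0.45 to -0.0057 for Nfkb2, -0.25 to -0.14 for Rela and 0.18 to 0.47 for Rel. Without the deepest libraries, CTL4 and cKO4, an alternative chosen after seeing the data, the values were -0.14 for Nfkbia, -0.045 for Nfkbib and 0.046 for Tnfaip3, each with the opposite sign.

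Between title number groups, edgeR called 2 genes in the fit as reported, 1 with DESeq2's size factors, 4 with no filter, 0 without genotype in the model and 0 without the deepest libraries, limma-voom called 1, and DESeq2's Wald test 380, among them 4 of the 10. With single libraries left out the count ran from 0 (without CTL replicate 1, CTL replicate 2 or cKO replicate 4) to 4 (without CTL replicate 3 or cKO replicate 3), with 1 without CTL replicate 4 or cKO replicate 2, and 0 of the 10 were called. The differences then ran from -0.21 to 0.15 for Rel and -0.095 to 0.11 for Nfkbib (0.19 without the deepest libraries). They ran from -0.40 to -0.070 for Nfkbia, -0.66 to -0.21 for Tnfaip3, -0.14 to -0.015 for Rela, -0.47 to -0.42 for Nfkb1, -0.75 to -0.48 for Nfkb2, -0.63 to -0.43 for Relb, -1.04 to -0.63 for Nfkbie and -0.98 to -0.69 for Birc3. The cause of these changes was not tested.

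The genotypes share the replicate numbers 1 to 4. Over all genes, the deviations of libraries 1, 2, 3 and 4 from their group means correlated between genotypes by 0.131, 0.176, 0.0844 and 0.0572, which does not show pairing. With the replicate block edgeR called 0 genes (812 at an unadjusted p under 0.05) and 0 of the 10, and Rela had a log2 difference of -0.21 with an unadjusted p of 0.0335. The SE of Nfkbie was 0.20 with the block and 0.37 without it, and that of Rel was 0.26 in both fits.

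At 4 mice a group and without a batch term, the intervals of 2 SE reach from -0.93 to 0.55 for Nfkbie, -0.68 to 0.63 for Birc3 and -0.70 to 0.45 for Tnfaip3. With title number group as a term in edgeR, the SE was 0.25 for Nfkbie, 0.19 for Birc3 and 0.25 for Tnfaip3. Without it these were 0.37, 0.33 and 0.29. The SE of Rel was 0.27 with the term and 0.26 without it. Each of the 10 genes had at least 255 counts in every library.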
